A study of Mus musculus with 12 samples.

Results

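The interferon response genes described here are 45 named genes of the type I and type II interferon pathways, taken by gene symbol from the deposited table of mouse kidney tubuloids. All 45 were among the 20819 genes of the table, and all 45 passed the filter on low values described below. Tubuloids are clusters of tubular epithelial cells, here grown in Matrigel as primary cultures from the renal cortex of 4 wildtype mice. They were exposed for 12 h to myoglobin with 100 nM dexamethasone, to myoglobin alone or to vehicle, with 4 RNA-seq libraries per treatment and 12 in all. Myoglobin is the haem protein of muscle and was the injuring agent. Dexamethasone is a synthetic glucocorticoid, and no group received it without myoglobin. All groups were wildtype, and the mice's age, sex and strain and the myoglobin dose are not given in the sources used here. The replicate numbers are not stated to mark mice, so p-values measure only the spread between these samples, which may be technical.

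Type I interferons signal through the receptor chains IFNAR1 and IFNAR2, and interferon gamma through IFNGR1 and IFNGR2. Janus kinases bound to these chains phosphorylate STAT proteins. STAT2 and IRF9 belong to the complex that binds interferon-stimulated response elements, while interferon gamma acts through gamma-activated sites. Tubular epithelial cells carry these receptors and sensors of foreign nucleic acid and can mount this response themselves. The members were grouped by role into 6 receptor chains and Janus kinases, 6 transcription factors, 5 nucleic acid sensors, 15 antiviral effectors, 7 enzymes of ubiquitin, ISG15 and ADP-ribose, and 6 interferon-inducible GTPases.

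Values are normalised read counts, meaning each gene's reads scaled by a factor of its library and rounded. Their sum per library was between 5.34 and 5.73 M in the group with both agents, between 5.32 and 5.35 M for myoglobin alone and between 5.25 and 5.29 M for vehicle. Replicate 4 of myoglobin with dexamethasone stood apart. Its estimated depth was 3.25 M reads against 4.85 to 5.92 M in the other 11 libraries, and 2179 genes were at 0 in it against 1051 to 1544. Member calls that it moved are given with and without it, as are the fold changes of some members. Gbp2, Gbp3, Trim21 and Dhx58 also deviated in it, and their fold changes are given only with all libraries. The 8 epithelial markers summed to 8877 to 12260 with both agents (8877 to 9146 without replicate 4), 8155 to 8766 with myoglobin and 8976 to 9125 with vehicle. Of 12 leukocyte markers, 8 were found by symbol in the deposited table. They summed to 498 to 550 with both agents, 439 to 481 with myoglobin and 542 to 619 with vehicle. Most of that was Ptprc, which fell with myoglobin against vehicle (log2 fold change -0.38, adjusted p = 4.08e-04) and rose with both agents against myoglobin (0.31, adjusted p = 0.00767). Without Ptprc and Cd68 the leukocyte sum was 19 to 38 with both agents, 28 to 55 with myoglobin and 8 to 51 with vehicle, and Itgam and Tyrobp stayed below 10 in every library. The 6 endothelial markers summed to 34 to 49 with both agents, 30 to 62 with myoglobin and 57 to 63 with vehicle, and all but Flt1 stayed below 10. The 6 stromal markers, with Col1a1 below 10 throughout, summed to 72 to 106 with both agents, 105 to 140 with myoglobin and 106 to 157 with vehicle. The part of other cell types in the results was not tested.

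In vehicle-treated tubuloids the members spanned a wide range of levels per kb of exon. The median member had 105.8 normalised counts per kb. Ifitm3, which blocks the fusion of viruses with endosomes, had the highest level at 619 per kb, followed by the virus tether Bst2 at 286 and the kinase Jak2 at 265. Gbp4, a guanylate-binding GTPase, had the lowest at 8.11 per kb, next to the radical SAM enzyme Rsad2 (viperin) at 10.9. No member was at 0 in any library, and single values ranged from 23 to 1829.

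Promoter sequences are shown first for the genes on which the results turn. They are RefSeq sequences of build GRCm38.p6, the 250 bases upstream of the annotated start, read 5′ to 3′ on the gene's strand, and 38 of the 45 members were matched. Where a member had several annotated starts, only the start nearest to the gene's start in the deposited table was used. Capitals mark matches to the core of the interferon-stimulated response element (ISRE; GAAA, any 2 bases, then GAAA) or of the gamma-activated site (GAS, TTCNNNGAA), searched on both strands. Ifit1 (chr19:34640639-34640888, plus strand) and Ifit3 (chr19:34583279-34583528, plus strand) are shown because they fell with myoglobin and hold the ISRE core. Gbp2 (chr3:142620413-142620662, plus strand), which rose, also holds it. Isg15 (chr4:156200819-156201068, minus strand) has 3 overlapping ISRE matches and was not called in any comparison. Irf1 (chr11:53769764-53770013, plus strand), which rose, holds a GAS core and no ISRE core.
Ifit1: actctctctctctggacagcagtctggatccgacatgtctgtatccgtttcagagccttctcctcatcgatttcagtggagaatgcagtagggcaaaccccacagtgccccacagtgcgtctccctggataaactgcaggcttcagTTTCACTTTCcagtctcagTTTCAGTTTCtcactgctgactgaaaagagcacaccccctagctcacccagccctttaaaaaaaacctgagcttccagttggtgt
Ifit3: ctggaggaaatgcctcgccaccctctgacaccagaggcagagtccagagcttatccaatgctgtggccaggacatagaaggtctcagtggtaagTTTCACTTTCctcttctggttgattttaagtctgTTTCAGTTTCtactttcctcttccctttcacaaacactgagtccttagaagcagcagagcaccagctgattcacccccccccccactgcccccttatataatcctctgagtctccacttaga
Gbp2: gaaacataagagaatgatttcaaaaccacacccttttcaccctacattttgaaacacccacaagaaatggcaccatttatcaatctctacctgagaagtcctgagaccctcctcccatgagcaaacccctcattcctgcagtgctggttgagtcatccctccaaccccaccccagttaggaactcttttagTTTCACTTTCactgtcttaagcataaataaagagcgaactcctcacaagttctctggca
Isg15: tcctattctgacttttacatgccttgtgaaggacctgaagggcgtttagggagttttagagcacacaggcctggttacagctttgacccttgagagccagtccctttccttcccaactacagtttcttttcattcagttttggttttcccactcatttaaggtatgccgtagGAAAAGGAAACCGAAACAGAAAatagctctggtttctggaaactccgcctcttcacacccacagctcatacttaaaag
Irf1: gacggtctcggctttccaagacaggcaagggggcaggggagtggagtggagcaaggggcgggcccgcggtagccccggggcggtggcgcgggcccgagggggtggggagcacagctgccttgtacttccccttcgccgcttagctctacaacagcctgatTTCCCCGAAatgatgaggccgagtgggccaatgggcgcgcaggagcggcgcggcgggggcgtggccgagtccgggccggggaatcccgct
The letters TTTCACTTTC and TTTCAGTTTC, ISRE cores read on the opposite strand, occur in both Ifit promoters. They lie 104 to 95 and 85 to 76 bases upstream of the start in Ifit1, and 156 to 147 and 122 to 113 bases upstream in Ifit3. Gbp2 holds TTTCACTTTC at 59 to 50 bases upstream of its RefSeq start. That start lies 61 bases downstream of the gene's start in the deposited table, so the match falls inside the gene as listed there. The GAS letters TTCCCCGAA of Irf1 lie 90 to 82 bases upstream. An ISRE core was found in 13 of the 38 matched members (34.2%) and in 2.98% of all 32851 promoter windows of the same length. Members count with 1 window each, while all windows include every annotated start of a gene, so the shares differ in unit. A GAS core was found in 10 members (26.3%) and in 7.02% of all windows, and 4 members held both. Of the 9 matched members that rose with myoglobin against vehicle, 2 held an ISRE core and 2 a GAS core. Of the 5 that fell, 2 held an ISRE core and 1 a GAS core, and of the 24 that were not called, 9 and 7. These counts depend on the start used. Ifit2 and Irf9, which fell, have 2 annotated starts each. The start used lay 414 bases from the start in the deposited table for Irf9, 263 for Irgm1, 169 for Samhd1 and 124 for Dtx3l. A match is a description of letters, not evidence of binding. The promoters of Dhx58, Gbp4, Ifi27, Parp14, Parp9, Rtp4 and Usp18 were not matched.

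The comparison of myoglobin with vehicle asks how the injuring agent alone moved these genes. The receptor chains Ifnar2 and Ifngr2, the transcription factor Irf1 and the guanylate-binding proteins Gbp2, Gbp3 and Gbp4 rose, while Ifit1, Ifit2, Ifit3, Irf7 and Irf9 fell. In all, 12 of 45 members rose (26.7%) and 6 fell (13.3%), against a background of 8.71% and 9.62% of all 14558 genes tested. The members were chosen with earlier results of these data known. Their shares, in any comparison, are therefore not a test against the background. The median log2 fold change of the members was 0.0067, beside 0.0026 for all genes. Under upper-quartile scaling the split was 8 members higher and 10 lower, and over all genes 941 higher and 1805 lower beside 1268 and 1401 with the deposited scaling. The call is limma's moderated test on log2(value + 1), two-sided, with Benjamini-Hochberg adjustment over all genes and a threshold of 0.05. Fold changes are on that log2 scale, which understates the change of low genes. In these bulk libraries, fewer cells of a type and less RNA per cell cannot be told apart.

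**Figure D1:**
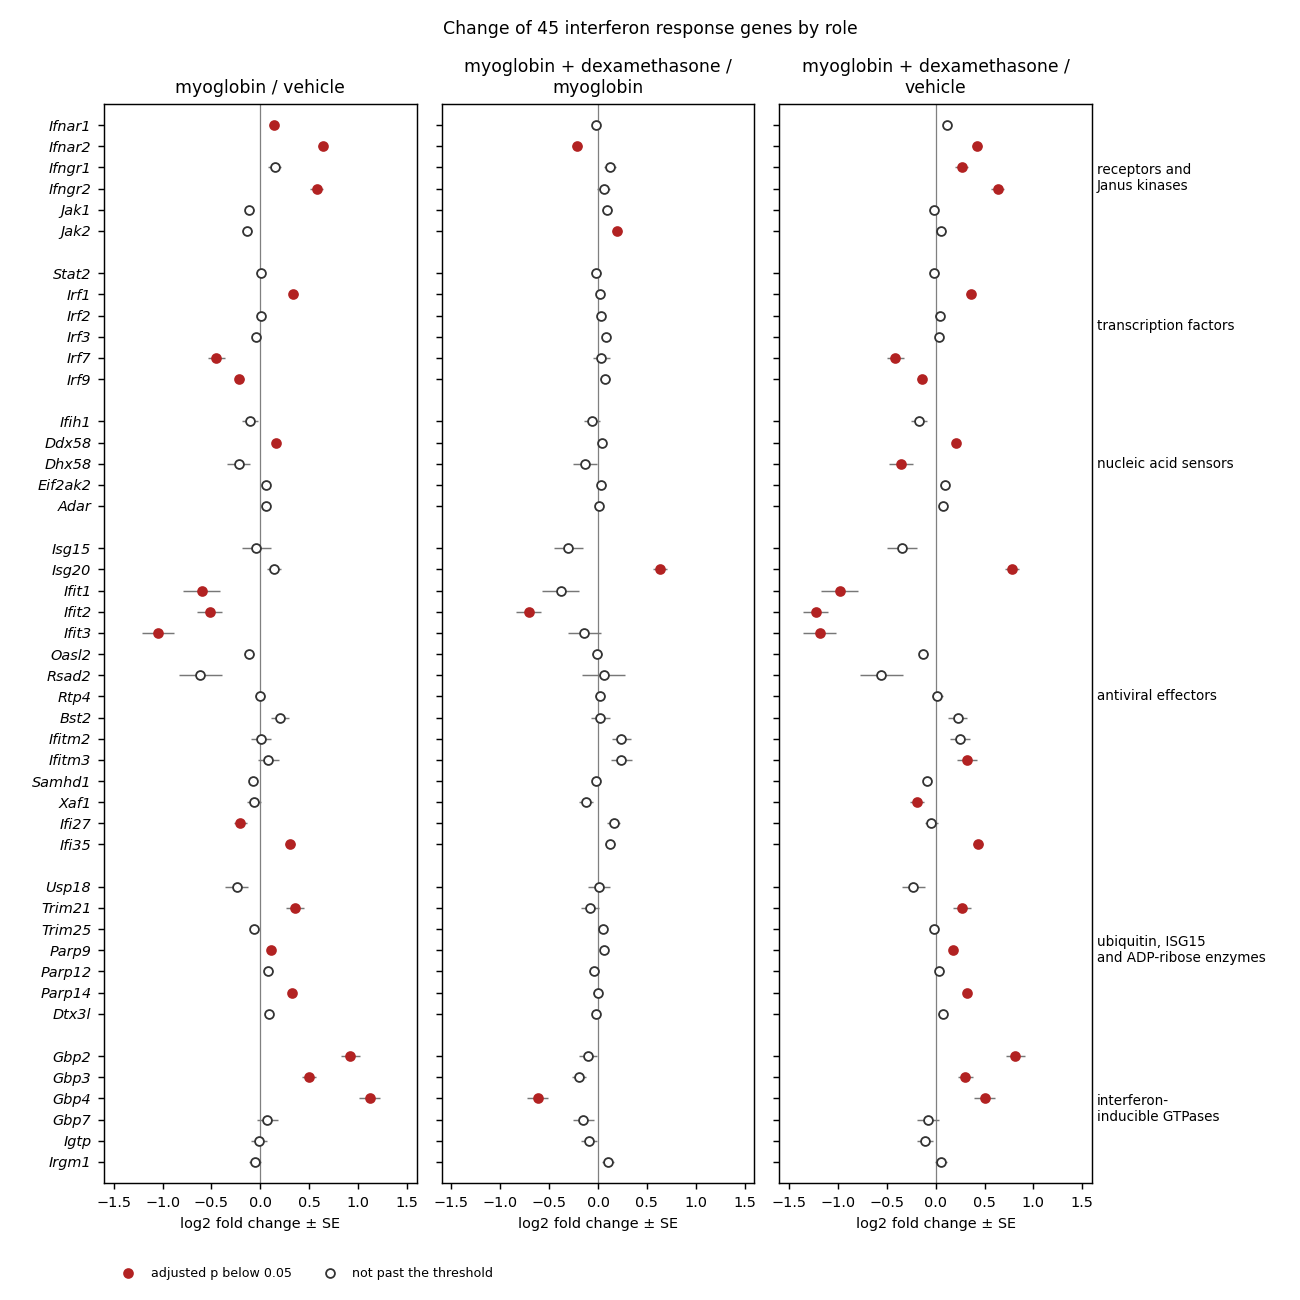
Log2 fold change ± SE of each of the 45 genes, grouped by role, for myoglobin against vehicle, both agents against myoglobin, and both agents against vehicle. Filled points have an adjusted p below 0.05: 12 rose and 6 fell in the left panel, 2 and 3 in the middle panel, and 14 and 7 in the right panel.

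Of the 6 receptor chains and Janus kinases, 3 rose and 0 fell with myoglobin. The counts by role, here and below, are small and stand beside 8.71% of all genes higher and 9.62% lower. Ifnar2 (ENSMUSG00000022971, chromosome 16, 91372783 to 91405589), the chain that carries much of the type I receptor's signalling tail, had 381, 386, 368 and 338 normalised counts with myoglobin, against 236, 243, 225 and 241 with vehicle. Every myoglobin library lay above every vehicle library. Its log2 fold change was 0.64 ± 0.050 (SE, adjusted p = 2.43e-07, limma). Ifngr2 (chromosome 16, 91547072 to 91565623), the accessory chain of the interferon gamma receptor, had 599, 577, 617 and 577 with myoglobin, against 427, 402, 374 and 387 with vehicle. The groups again did not overlap, and the log2 fold change was 0.58 ± 0.067 (adjusted p = 1.62e-05). Ifnar1, the partner chain of Ifnar2, rose less, with 931, 891, 865 and 905 with myoglobin against 857, 835, 792 and 783 with vehicle (log2 fold change 0.14 ± 0.046, adjusted p = 0.0484). The ligand-binding chain Ifngr1 had 624, 665, 636 and 630 with myoglobin against 579, 560, 577 and 594 with vehicle, without overlap and without a call (0.15 ± 0.062, adjusted p = 0.126). The kinases lay slightly lower and were not called. Jak2 had 1242, 1216, 1233 and 1152 with myoglobin against 1407, 1322, 1314 and 1291 with vehicle (-0.14 ± 0.051, adjusted p = 0.0718), and Jak1 a log2 fold change of -0.11 ± 0.048 (adjusted p = 0.126).

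Among the 6 transcription factors, 1 rose and 2 fell. Irf1 (chromosome 11, 53770014 to 53778374), an early target of interferon gamma, had 673, 656, 645 and 624 normalised counts with myoglobin, against 522, 530, 504 and 497 with vehicle. The groups did not overlap, and the log2 fold change was 0.34 ± 0.042 (adjusted p = 3.24e-05). Irf7 (chromosome 7, 141262706 to 141266481), which amplifies type I interferon production, had 212, 214, 231 and 261 with myoglobin, against 292, 280, 341 and 342 with vehicle. All 4 myoglobin values were below the vehicle values, with a log2 fold change of -0.45 ± 0.087 (adjusted p = 0.00171). Irf9 (chromosome 14, 55603571 to 55610030), the DNA-binding subunit of the STAT complex, had 529, 474, 536 and 517 with myoglobin, against 591, 620, 577 and 599 with vehicle. It fell without overlap, by 0.22 ± 0.047 on the log2 scale (adjusted p = 0.00390). Its partner Stat2 had 608, 563, 598 and 605 with myoglobin, against 573, 572, 591 and 634 with vehicle, and the groups overlapped (0.0030 ± 0.050, adjusted p = 0.976). Irf2, an antagonist of IRF1, averaged 365.5 ± 9.88 with myoglobin and 363.8 ± 6.18 with vehicle (SD, n = 4 each). Irf3, the factor activated by the sensor pathways, had 475, 456, 468 and 498 with myoglobin and 496, 482, 506 and 476 with vehicle, and was not called (adjusted p = 0.486). Irf7 overlaps Phrf1 on the opposite strand and Irf9 overlaps Rnf31 on the same strand. The counting setting is not given in the sources used here, so reads of such neighbours may be shared.

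Of the 5 nucleic acid sensors, 1 rose and 0 fell. Ddx58 (chromosome 4, 40203773 to 40239828), which encodes the RNA sensor RIG-I, had 1080, 1035, 1087 and 1032 with myoglobin against 972, 919, 963 and 931 with vehicle. The groups did not overlap, though the log2 fold change was small at 0.16 ± 0.037 (adjusted p = 0.00572). Under upper-quartile scaling this call was lost (0.12, adjusted p = 0.0669). The related sensor Ifih1 (MDA5), the regulator Dhx58 (LGP2), the RNA-activated kinase Eif2ak2 (PKR) and the RNA-editing enzyme Adar were not called, with adjusted p-values of 0.236 to 0.436.

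The 15 antiviral effectors held the members that fell most. Ifit3 (chromosome 19, 34583531 to 34588731), one of the IFIT proteins that bind viral RNA or each other, had 39, 41, 33 and 41 normalised counts with myoglobin, against 74, 93, 73 and 83 with vehicle. Every myoglobin value was below every vehicle value, and the log2 fold change was -1.05 ± 0.17 (adjusted p = 3.02e-04), a ratio of 0.48. Ifit2 (chromosome 19, 34550694 to 34576419) had 120, 106, 103 and 140 with myoglobin, against 170, 157, 157 and 186 with vehicle (-0.52 ± 0.13, adjusted p = 0.00829). Ifit1 (chromosome 19, 34640871 to 34650009) had 77, 75, 92 and 104 with myoglobin, against 115, 131, 116 and 169 with vehicle (-0.60 ± 0.19, adjusted p = 0.0372). Neither gene's groups overlapped. Ifit3 has a near-identical copy, Ifit3b, so its reads may have been split. Rsad2 averaged 30.2 ± 7.89 with myoglobin and 47.2 ± 14.4 with vehicle (SD, n = 4 each) and missed the threshold (-0.61 ± 0.22, adjusted p = 0.0650). It passed without vehicle replicate 3 (adjusted p = 0.0446) or myoglobin replicate 4 (0.0293).

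Isg15, a ubiquitin-like modifier often used as a marker of this response, had 76, 69, 74 and 90 normalised counts with myoglobin, against 64, 77, 83 and 96 with vehicle. The groups overlapped (-0.04 ± 0.15, adjusted p = 0.886). Ifi35, a cytosolic partner of NMI, was the effector that rose, with 320, 303, 319 and 315 with myoglobin against 239, 246, 267 and 263 with vehicle (0.31 ± 0.051, adjusted p = 4.53e-04). Ifi27, a membrane protein of mitochondria and nucleus, fell by 0.20 ± 0.068 (adjusted p = 0.0476). The exonuclease Isg20 had 147, 151, 144 and 149 with myoglobin and 123, 139, 146 and 128 with vehicle, and was not called (adjusted p = 0.191). Oasl2, Rtp4, Bst2, Ifitm2, Ifitm3, Samhd1 and Xaf1 were not called either, with log2 fold changes of -0.12 to 0.20.

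Of the 7 enzymes of ubiquitin, ISG15 and ADP-ribose, 3 rose and 0 fell. Parp14 (chromosome 16, 35832874 to 35871544), an ADP-ribosyl transferase, had 1463, 1404, 1349 and 1359 with myoglobin, against 1154, 1134, 1069 and 1089 with vehicle, without overlap (0.33 ± 0.042, adjusted p = 4.65e-05). The cytosolic antibody receptor Trim21 had 263, 246, 240 and 237 with myoglobin, against 208, 194, 189 and 181 with vehicle, and the groups did not overlap (0.35 ± 0.090, adjusted p = 0.0119). Parp9 had 732, 715, 749 and 692 with myoglobin, against 683, 673, 650 and 662 with vehicle (0.11 ± 0.037, adjusted p = 0.0447). Its partner ubiquitin ligase Dtx3l, which overlaps it on the opposite strand, was not called (0.09 ± 0.042, adjusted p = 0.167). Usp18, which removes ISG15, the ligase Trim25 and the ADP-ribosyl transferase Parp12 were not called.

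Of the 6 interferon-inducible GTPases, 3 rose and 0 fell. Gbp4 (chromosome 5, 105115767 to 105139586) had 146, 142, 117 and 126 normalised counts with myoglobin, against 56, 72, 55 and 60 with vehicle. Its ratio of 2.17 was the largest rise among the 45 members in this comparison (log2 fold change 1.12 ± 0.11, adjusted p = 2.30e-06). Gbp4 overlaps its relatives Gbp8 and Gbp9 on the same strand, so the split of reads among them is uncertain. Gbp2 (chromosome 3, 142620602 to 142638008) had 512, 415, 450 and 417 with myoglobin, against 248, 257, 227 and 214 with vehicle (0.92 ± 0.096, adjusted p = 5.51e-06). Gbp3 had 555, 494, 499 and 484 with myoglobin, against 361, 373, 344 and 359 with vehicle (0.50 ± 0.075, adjusted p = 1.84e-04). The groups did not overlap for any of the 3 genes. Gbp7 and the immunity-related GTPases Igtp and Irgm1 lay between -0.05 and 0.07 on the log2 scale and were not called.

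**Figure D2:**
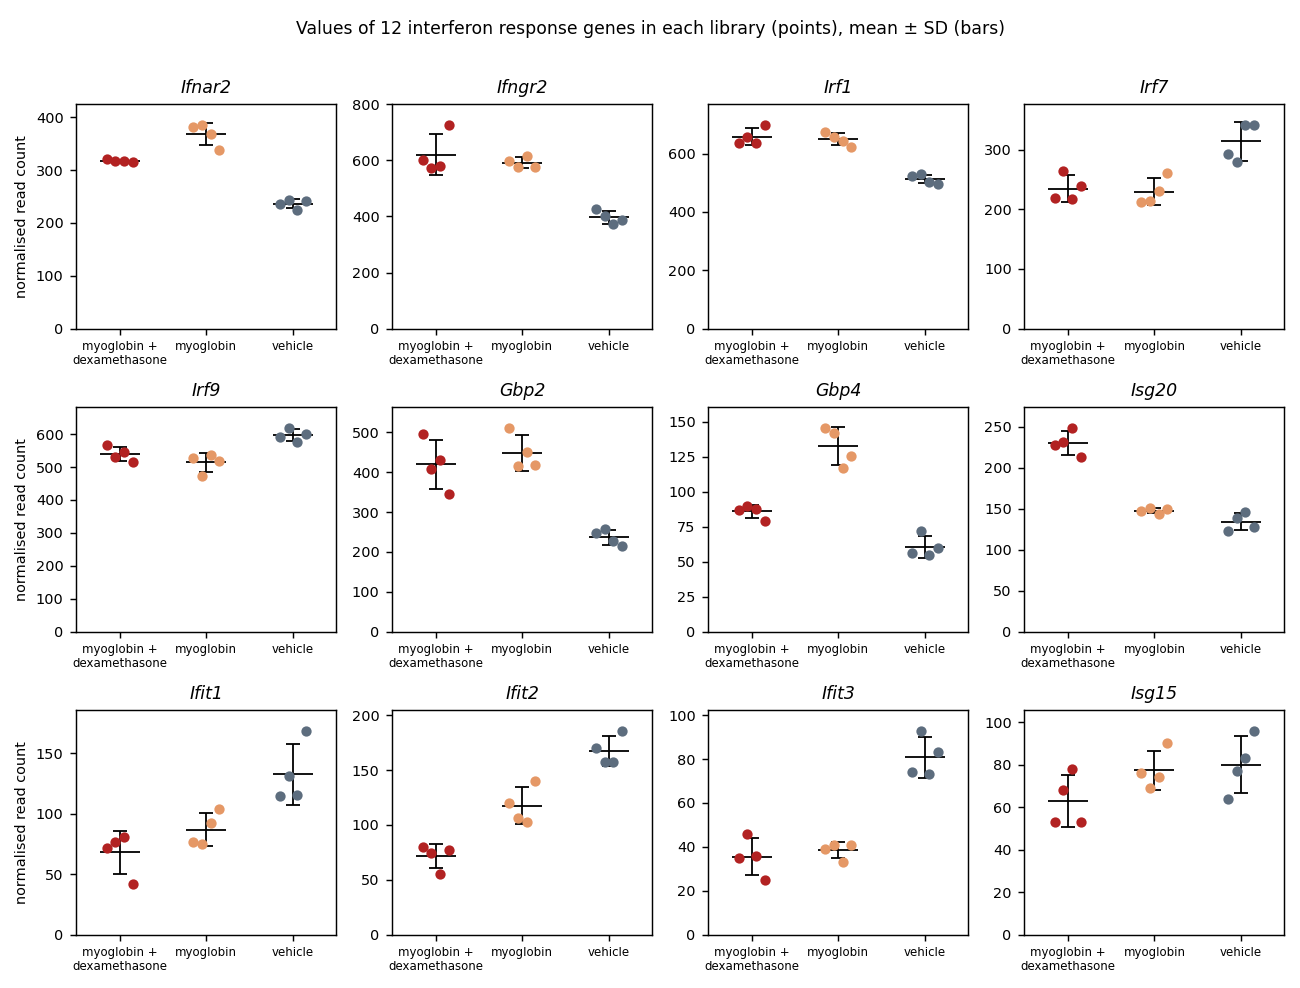
Normalised read counts of 12 interferon response genes in each library (points), with the mean ± SD of 4 libraries (bars), for myoglobin with dexamethasone, myoglobin and vehicle. Gbp4 lies at 79 to 90 with both agents, 117 to 146 with myoglobin and 55 to 72 with vehicle, and Ifit2 at 55 to 80 with both agents, 103 to 140 with myoglobin and 157 to 186 with vehicle.

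Several calls of myoglobin against vehicle lay near the threshold. Ifnar1 lost its call without any 1 of 10 libraries, all but vehicle replicate 1 and replicate 4 of both agents (adjusted p 0.0513 to 0.136). Parp9 lost it without any of the 4 vehicle libraries, myoglobin replicates 1, 2 or 3, or replicates 2 or 3 of both agents (0.0527 to 0.138), and Ifi27 without any vehicle library, myoglobin replicates 1, 3 or 4, or replicates 1 or 3 of both agents (0.0523 to 0.134). Ifit1 lost it without vehicle replicates 2, 3 or 4 or myoglobin replicates 1, 2 or 3 (0.0504 to 0.114). Upper-quartile scaling ended the calls of Ifnar1 (0.145), Trim21 (0.0501) and Parp9 (0.199) as well as that of Ddx58. Without replicate 4 of myoglobin with dexamethasone, which enters through the shared estimate of the spread, 14 members rose and 8 fell. Over all genes 1926 rose and 1863 fell without it, beside 1268 and 1401 with it. The calls gained were Ifngr1 (0.15, adjusted p = 0.00313), Bst2 (0.20, 0.00925), Jak1 (-0.11, 0.00631) and Jak2 (-0.14, 0.0151).

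The comparison of both agents with myoglobin alone asks what dexamethasone changed in injured tubuloids. Isg20 and Jak2 rose, and Ifit2, Gbp4 and Ifnar2 fell. These were 2 of 45 members higher (4.44%) and 3 lower (6.67%), against 3.08% and 3.9% of all genes tested, and the median log2 fold change of the members was 0.01 beside 0.0063 for all genes. The shares of members called were near the background. No transcription factor, sensor or enzyme of ubiquitin, ISG15 and ADP-ribose was called by limma, and 0 of them had an unadjusted p below 0.05. This comparison and that of myoglobin with vehicle share the myoglobin libraries.

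Isg20 (chromosome 7, 78913424 to 78920396), an exonuclease of single-stranded RNA, had 228, 231, 249 and 213 normalised counts with both agents, against 147, 151, 144 and 149 with myoglobin. Every library with dexamethasone lay above every library without it. The log2 fold change was 0.63 ± 0.071 (adjusted p = 7.43e-05), a ratio of 1.55. Ifit2 had 80, 74, 55 and 77 with both agents, against 120, 106, 103 and 140 with myoglobin, and the groups did not overlap. It fell by 0.71 ± 0.13 (adjusted p = 0.00298), a ratio of 0.61. Its neighbours on chromosome 19 were not called. Ifit1 had 72, 77, 81 and 42 with both agents, against 77, 75, 92 and 104 with myoglobin (-0.38 ± 0.19, adjusted p = 0.246), and -0.17 without replicate 4. Ifit3 had 35, 46, 36 and 25 with both agents, against 39, 41, 33 and 41 with myoglobin (-0.14 ± 0.17, adjusted p = 0.658). Whether Ifit2 differed from Ifit1 or Ifit3 in its response was not tested.

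Gbp4 had 87, 90, 88 and 79 normalised counts with both agents, against 146, 142, 117 and 126 with myoglobin. It fell without overlap by 0.62 ± 0.11 (adjusted p = 0.00286), a ratio of 0.65. Gbp2 had 495, 409, 430 and 345 with both agents and 512, 415, 450 and 417 with myoglobin, and Gbp3 had 493, 471, 452 and 368 with both agents and 555, 494, 499 and 484 with myoglobin. Neither was called (adjusted p = 0.568 and 0.139). Ifnar2 had 320, 317, 318 and 315 with both agents, against 381, 386, 368 and 338 with myoglobin, without overlap (-0.21 ± 0.050, adjusted p = 0.0186). Jak2, which transmits the signal of IFNGR2, had 1447, 1308, 1304 and 1506 with both agents, against 1242, 1216, 1233 and 1152 with myoglobin, also without overlap (0.20 ± 0.051, adjusted p = 0.0276). Ifnar2 lost its call without myoglobin replicate 1 or 2 (0.0529 and 0.0704), and Jak2 without myoglobin replicates 2, 3 or 4 or replicate 1 of both agents (0.0551 to 0.0997), which leaves 1 member higher. Without replicate 4 of myoglobin with dexamethasone the 5 called members stayed called, with log2 fold changes of 0.67 for Isg20, -0.75 for Ifit2, -0.58 for Gbp4, -0.21 for Ifnar2 and 0.16 for Jak2. Ifitm2, a relative of Ifitm3, passed when replicate 3 of both agents was left out (0.34, adjusted p = 0.0367).

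The further members given by library were not called in this comparison. Irf1 had 636, 658, 638 and 700 with both agents and 673, 656, 645 and 624 with myoglobin (0.02 ± 0.042, adjusted p = 0.836). Irf7 had 219, 264, 217 and 239 with both agents and 212, 214, 231 and 261 with myoglobin (0.03 ± 0.087, adjusted p = 0.858). Irf3 was the transcription factor with the smallest p, with 484, 509, 520 and 496 with both agents against 475, 456, 468 and 498 with myoglobin (0.08 ± 0.041, adjusted p = 0.251). Irf9 had 567, 531, 547 and 514 with both agents (adjusted p = 0.392) and Stat2 557, 621, 612 and 554 (adjusted p = 0.852). For Ddx58 the values were 1087, 1109, 1114 and 1052 with both agents (adjusted p = 0.523), and for Parp9 732, 757, 756 and 776 (adjusted p = 0.318). Parp14 had 1443, 1421, 1365 and 1330 with both agents (adjusted p = 0.967). Isg15 had 53, 68, 78 and 53 with both agents against 76, 69, 74 and 90 with myoglobin, with overlap (-0.30 ± 0.15, adjusted p = 0.250). Ifnar1 had 895, 846, 852 and 950 and Ifngr1 670, 655, 644 and 820 with both agents, and neither was called (adjusted p = 0.825 and 0.270).

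**Figure D3:**
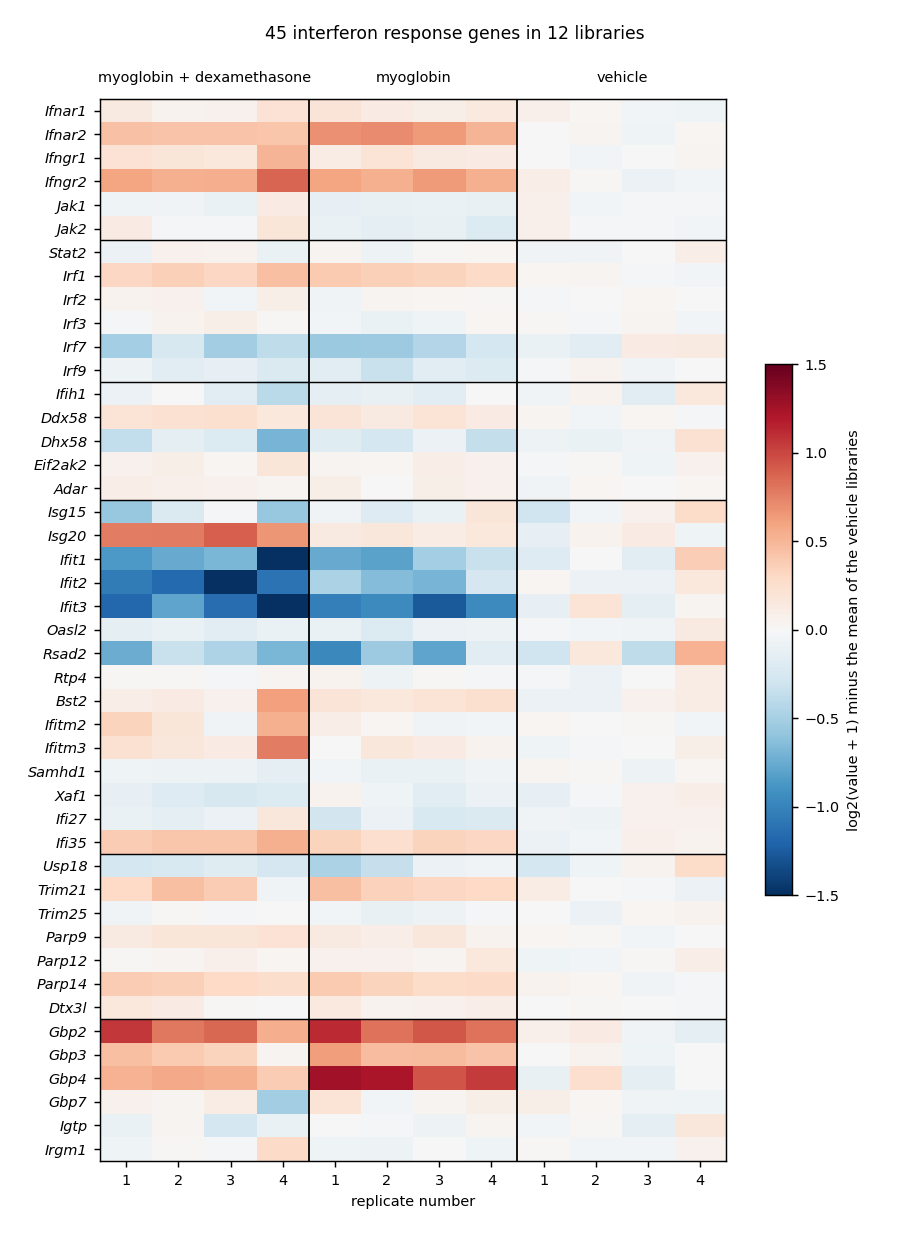
Log2(value + 1) of each of the 45 genes in each of the 12 libraries, minus the mean of the vehicle libraries. Columns run from myoglobin with dexamethasone through myoglobin to vehicle, rows are grouped by role, and red is above and blue below the vehicle mean. The block of Ifit1, Ifit2 and Ifit3 is blue and the block of Gbp2, Gbp3 and Gbp4 red in both myoglobin-treated groups. The exception is Gbp3 in replicate 4 of both agents, which lies close to the vehicle mean (368 against 359).

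Set against vehicle, tubuloids with both agents had 14 members higher (31.1%) and 7 lower (15.6%), beside 13.9% and 14.6% of all genes tested. Under upper-quartile scaling 12 members were higher and 10 lower, and over all genes 1344 were higher and 2931 lower beside 2029 and 2132. This comparison shares the vehicle libraries with that of myoglobin alone. Ifit2 averaged 71.5 ± 11.3 with both agents and 167.5 ± 13.8 with vehicle (SD, n = 4 each), and its fall was the largest of the 45 members here (-1.23 ± 0.13, adjusted p = 3.45e-06). Ifit3 averaged 35.5 ± 8.58 with both agents and 80.8 ± 9.32 with vehicle (-1.19 ± 0.17, adjusted p = 7.86e-05), and Ifit1 68.0 ± 17.7 with both agents and 132.8 ± 25.3 with vehicle (-0.98 ± 0.19, adjusted p = 0.00120). The groups of these 3 genes did not overlap. Without replicate 4 of both agents, the low library for Ifit1 and Ifit3, the log2 fold changes were -1.27, -1.04 and -0.77 for Ifit2, Ifit3 and Ifit1.

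Isg20 averaged 230.2 ± 14.8 with both agents and 134.0 ± 10.4 with vehicle (0.78 ± 0.071, adjusted p = 1.05e-06). Gbp2 averaged 419.8 ± 61.8 with both agents and 236.5 ± 19.6 with vehicle (0.82 ± 0.096, adjusted p = 1.59e-05), and Gbp4 86.0 ± 4.83 with both agents and 60.8 ± 7.80 with vehicle (0.50 ± 0.11, adjusted p = 0.00286). Gbp3 rose by 0.30 ± 0.075 (adjusted p = 0.00690), a call lost under upper-quartile scaling (adjusted p = 0.0512). For the receptor chains, Ifngr2 rose by 0.64 ± 0.067 (adjusted p = 4.72e-06), Ifnar2 by 0.43 ± 0.050 (1.53e-05) and Ifngr1 by 0.26 ± 0.062 (0.00505). Without replicate 4 of both agents these were 0.56, 0.43 and 0.18, and all 3 stayed called. Ifnar1 missed the threshold (adjusted p = 0.0685) and passed without vehicle replicate 1 (0.0469) or under TMM scaling, another way to scale the libraries (0.0351). Irf1 rose by 0.36 ± 0.042 (adjusted p = 1.59e-05), Irf7 fell by 0.42 ± 0.087 (0.00237) and Irf9 fell by 0.15 ± 0.047 (0.0302). Ddx58, Ifi35, Parp9 and Parp14 also rose, with log2 fold changes of 0.20, 0.44, 0.18 and 0.32. Isg15 was not called (-0.34 ± 0.15, adjusted p = 0.0994), but passed without vehicle replicate 1 (-0.45, adjusted p = 0.0450) or replicate 3 of both agents (-0.45, 0.0389). Rsad2 passed without vehicle replicate 3 (adjusted p = 0.0463) and Ifitm2 without replicate 3 of both agents (0.00960).

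The remaining 4 calls of both agents against vehicle, and that of Irf9, were near the threshold. Dhx58 and Xaf1, an XIAP-associated factor, fell by 0.35 ± 0.12 and 0.19 ± 0.069 (adjusted p = 0.0387 and 0.0496), and Trim21 and Ifitm3 rose by 0.27 ± 0.090 and 0.32 ± 0.10 (0.0358 and 0.0302). Dhx58 lost its call without any 1 vehicle library, myoglobin replicate 2, or replicates 1 or 4 of both agents (0.0502 to 0.120). Xaf1 lost it without vehicle or myoglobin replicates 2, 3 or 4, or replicates 2, 3 or 4 of both agents (0.0510 to 0.133). Irf9 lost it without vehicle replicates 2 or 4 or replicates 2 or 4 of both agents (0.0528 to 0.0950), and Trim21 without vehicle replicates 2, 3 or 4 or replicates 1, 2 or 3 of both agents (0.0674 to 0.104). Ifitm3 lost it without vehicle replicates 1, 2 or 3 (0.0655 to 0.0697), and its log2 fold change was 0.18 without replicate 4 of both agents, where it had 712 against 458 to 493 in the other 3. Without vehicle replicate 2 or 4, 4 members in place of 7 fell, and over all genes 1606 or 1721 in place of 2132. Without replicate 4 of both agents, 14 rose and 5 fell, with Oasl2, a relative of the oligoadenylate synthetases, gained (-0.13, adjusted p = 0.0492). Over all genes 2137 rose and 2089 fell without that library, beside 2029 and 2132 with it.

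Across the 3 comparisons 24 members were called in at least 1 and 21 in none. The matching share of all genes was not computed, so this count is not read as a trait of the members. Those not called in the main fits were Jak1, Stat2, Irf2, Irf3, Ifih1, Eif2ak2, Adar, Isg15, Oasl2, Rsad2, Rtp4, Bst2, Ifitm2, Samhd1, Usp18, Trim25, Parp12, Dtx3l, Gbp7, Igtp and Irgm1. Some of them, Rsad2 among them, passed under alternative settings. A missed threshold does not show that these genes did not differ.

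The library that stood apart deviated with coverage. Relative to replicates 1 to 3 of its group, replicate 4 of myoglobin with dexamethasone was lower by a median of 0.21 on the log2 scale over all genes with under 0.03 estimated reads per exonic base, and higher by 0.40 over those with more than 0.3. Of the members, Bst2 and Ifitm3, the densest, had a median deviation of 0.55, and the 19 members at 0.03 to 0.1 reads per base a median of -0.06. Ifit1, Ifit3, Gbp7, Dhx58, Trim21, Ifih1 and Isg15 lay lower in it by 0.30 or more on the log2 scale, and so did Gbp2 and Gbp3 (both -0.36), whose density class had a median of 0.13 over all genes.

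**Figure D4:**
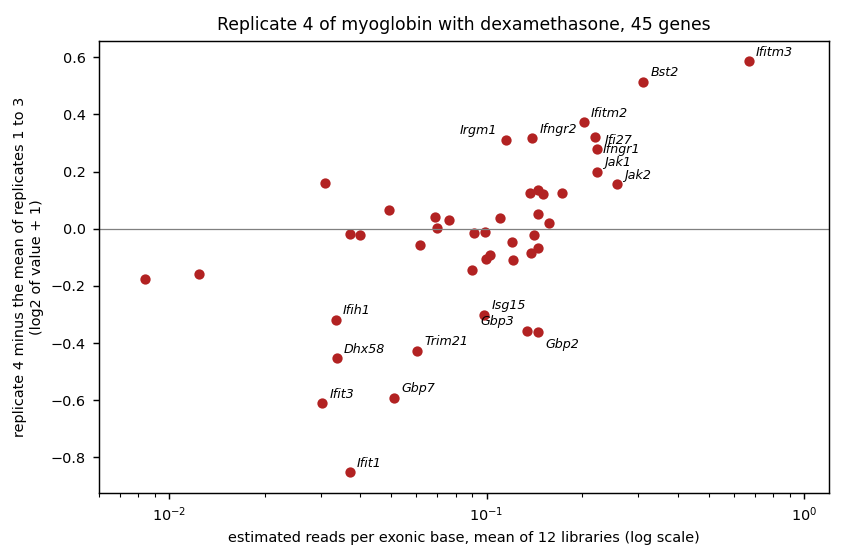
Log2(value + 1) of replicate 4 of myoglobin with dexamethasone minus the mean of replicates 1 to 3 of that group (vertical axis) against estimated reads per exonic base (horizontal axis, log scale), 1 point per gene for the 45 genes. Ifitm3 and Bst2, at the right, lie above 0, and Ifit1, Ifit3 and Gbp7, at lower coverage, lie below it.

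Other genes of the pathway were taken from lists and counted in the same fits. These lists too were chosen with earlier results known, so their shares are not a test against the background. Of 21 interferon genes listed, Ifne was the 1 found by symbol in the deposited table. It had 1, 1, 1 and 0 normalised counts with both agents, 0, 1, 2 and 2 with myoglobin and 0 in each vehicle library. It was too low to test. Of 13 further receptor signalling genes, 2 rose (15.4%) and 1 fell (7.69%) with myoglobin against vehicle, beside 8.71% and 9.62% of all genes tested. Il10rb, a receptor chain used by type III interferons, rose by 0.33 ± 0.054 (adjusted p = 4.08e-04), the feedback inhibitor Socs1 rose by 0.51 ± 0.14 (0.0159), and Irf2bp2, a corepressor that binds IRF2, fell by 0.16 ± 0.038 (0.00668). With both agents against myoglobin, 0 of the 13 were called by limma and 3 had an unadjusted p below 0.05. Against vehicle, 2 rose and 2 fell with both agents (15.4% each), near the 13.9% and 14.6% of all genes, among them Il10rb (0.38 ± 0.054, adjusted p = 9.94e-05), Socs1 (0.42 ± 0.14, 0.0333) and Irf2bp2 (-0.11 ± 0.038, 0.0406).

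Of 14 tested genes that lead to interferon production, 6 rose (42.9%) and 1 fell (7.14%) with myoglobin against vehicle, beside 8.71% and 9.62% of all genes. The kinase Ikbke, which phosphorylates IRF3 and IRF7, had 975, 1000, 1012 and 1014 with myoglobin, against 476, 535, 551 and 587 with vehicle (0.90 ± 0.051, adjusted p = 6.30e-09), and the groups did not overlap. Its relative Tbk1 rose by 0.22 ± 0.041 (adjusted p = 0.00142) and the adaptor Traf3 by 0.24 ± 0.034 (1.29e-04). With both agents against myoglobin, 1 rose and 1 fell (7.14% each, beside 3.08% and 3.9%). The DNA sensor Cgas had 62, 66, 81 and 81 with both agents, against 120, 115, 114 and 160 with myoglobin, without overlap (-0.80 ± 0.14, adjusted p = 0.00297). The adaptor Ticam1 (TRIF) rose by 0.34 ± 0.070 (adjusted p = 0.00773). Against vehicle, 7 rose (50.0%) and 1 fell (7.14%) with both agents, beside 13.9% and 14.6% of all genes, with Ikbke at 0.89 ± 0.051, Tbk1 at 0.29 ± 0.041 and Traf3 at 0.19 ± 0.034 (adjusted p = 6.19e-09, 9.47e-05 and 8.07e-04).

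Of 71 tested further interferon-induced genes, 17 rose (23.9%) and 6 fell (8.45%) with myoglobin against vehicle, beside 8.71% and 9.62% of all genes. Helz2, a helicase-domain coactivator, rose by 0.95 ± 0.049 (adjusted p = 2.14e-09), the GTPase Gbp6 by 1.75 ± 0.16 (1.52e-06) and Ube2l6, the ISG15-conjugating enzyme, by 0.73 ± 0.074 (4.36e-06). Gbp6 was low, with 66, 61, 50 and 52 normalised counts with myoglobin against 22, 15, 15 and 14 with vehicle, and its groups did not overlap. The 6 that fell, named after their values were seen, were Oas2 (-0.62 ± 0.095, adjusted p = 2.08e-04), Ddx60 (-0.46, 0.0114), Apol9a (-0.68, 0.0118), Ifit3b (-0.95, 0.0147), Trim30a (-0.30, 0.0149) and Irgm2 (-0.21, 0.0272). With both agents against myoglobin, 1 rose and 3 fell (1.41% and 4.23%, beside 3.08% and 3.9%). The chemokine Cxcl10 had 31, 28, 38 and 26 with both agents, against 51, 46, 59 and 57 with myoglobin (-0.78 ± 0.15, adjusted p = 0.00569), without overlap. The Schlafen gene Slfn9 fell by 0.57 ± 0.10 (adjusted p = 0.00392) and Gbp9, which overlaps Gbp4, by 0.35 ± 0.096 (0.0402). Against vehicle, 18 rose (25.4%) and 11 fell (15.5%) with both agents, beside 13.9% and 14.6% of all genes, with Helz2 at 1.00 ± 0.049, Gbp6 at 1.69 ± 0.16 and the proteasome activator subunit Psme2 at 0.49 ± 0.051 (adjusted p = 1.24e-09, 1.86e-06 and 4.21e-06). Among the 11, likewise named after their values were seen, Oas2 fell by 0.83 ± 0.095 (adjusted p = 1.12e-05), Apol9a by 1.05 ± 0.17 (3.54e-04) and Ifit3b by 1.12 ± 0.25 (0.00378).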

How the data were processed

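Total RNA of 12 tubuloid cultures was sequenced as stranded messenger RNA libraries, per the labels' protocols. Per the submitters' processing notes, DESeq2 1.36.0, featureCounts 2.0.3, STAR 2.7.10a, Trimmomatic 0.39 and Picard 2.27.4 were used, and the build was mm10; what each tool did is not stated. The deposited values are whole numbers and were handled as a score: the steps between them show that each library's reads were scaled by a factor and then rounded. The factor was 0.569 in replicate 4 of myoglobin with dexamethasone and 0.904 to 1.11 in the others. Tests of raw counts were therefore not used. Coordinates are those of the table, and 44 of the 45 members had the same ones in GENCODE M21, which gave exonic lengths.

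limma 3.58.1 in R 4.3.3 was run with a mean-variance trend on log2(value + 1), with 3 groups, 12 libraries and genes of at least 10 in at least 4 libraries, which left 14558. Tests were two-sided, with Benjamini-Hochberg adjustment inside every comparison. The deposited values carry counting error at 3.25 to 5.92 M estimated reads per library, and 4 libraries per group limit the precision. Values per library are given for a fixed set of regulators and for the member of each role with the smallest p in the comparisons of myoglobin with vehicle and of both agents with myoglobin, together with the other members that a result turns on. The members and lists were chosen with earlier results of these data known. Alternatives were other pseudocounts, filters, scalings and spreads, a replicate block, and leaving out libraries. Promoters came from RefSeq. Python 3.11.15 with matplotlib 3.10.9, pandas 2.3.3 and numpy 2.4.6 served for tables and plots.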

Additional observations from a re-analysis of the deposited data

Results flagged for a closer look

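Each member was checked in each group for a library whose gap to the nearest of the other 3, relative to the group's range, exceeded the 95% critical value of Dixon's test. Of 135 group values, 10 met this, where chance at 1 in 20 gives about 6.8. Of the 10, 7 were in replicate 4 of myoglobin with dexamethasone, the library with the fewest reads. In it Ifngr1 had 820 against 644 to 670 in the other 3 libraries, Ifngr2 728 against 574 to 600, and Jak1 1829 against 1569 to 1610. Bst2 had 394 against 270 to 280, Ifitm3 712 against 458 to 493, and Ifi27 392 against 316 to 328. Gbp7 was the 1 low value, at 197 against 290 to 305. The part of this library's coverage in these values was not tested.

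The other 3 values were high in single libraries of the remaining groups. Irgm1 had 679 in myoglobin replicate 3 against 644 to 648. Dhx58 had 145 in vehicle replicate 4 against 115 to 119, and Oasl2 had 561 in the same library against 493 to 502.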

How the results depend on the processing

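Over 26 alternatives, 10 of the 18 member calls of myoglobin against vehicle held in every one, 3 of the 5 of both agents against myoglobin and 15 of the 21 of both agents against vehicle, and 0 calls reversed. How many calls of all genes held in every alternative was not computed, so these counts are not read as a trait of the members. With upper-quartile scaling the members lower with myoglobin against vehicle numbered 10, and with only the 2 groups compared 1 member was higher with both agents against myoglobin; the cause was not tested. Leaving out 1 library, or all libraries of 1 replicate number, gave 8 to 14 members higher and 3 to 9 lower with myoglobin against vehicle, 1 to 3 and 2 to 3 with both agents against myoglobin, and 11 to 14 and 4 to 7 with both agents against vehicle. Over all genes the same fits gave 701 to 1926 higher and 686 to 1863 lower with myoglobin against vehicle. They gave 140 to 584 and 173 to 695 with both agents against myoglobin. With both agents against vehicle they gave 1168 to 2137 and 1236 to 2120. The same-numbered libraries deviated together in 9 of 12 pairs (correlation over 0.1, range -0.02 to 0.46) and not in the other 3. The numbers are not stated to mark mice either, so they are not taken as pairs. However, a library's own number matched best in 20 of 24 checks. The median correlation was 0.16 for same-numbered pairs and -0.05 for other pairs. If the numbers do mark pairs, tests without the block may miss differences. With the replicate block 12 members were higher and 8 lower with myoglobin against vehicle. Over all genes it gave 1624 and 1879, beside 1268 and 1401 without the block. For both agents against myoglobin there were 2 and 4 members, and over all genes 749 and 1039, beside 448 and 568. For both agents against vehicle there were 17 and 9 members, and over all genes 2582 and 2690, beside 2029 and 2132. Rsad2 was among those lower in both comparisons with vehicle (adjusted p = 0.0184 and 0.0227, limma). Ifnar1 was among those higher with both agents against vehicle (0.0420), and Gbp3 among those lower with both agents against myoglobin (0.0419). Array weights gave 2143 and 2171 genes with myoglobin against vehicle, beside 1268 and 1401, and 740 and 885 with both agents against myoglobin, where the 2 groups alone gave 274 and 365. Without replicate 4 of both agents 1926 and 1863 genes were called with myoglobin against vehicle. Leaving out myoglobin replicate 4 gave 253 and 296 genes with both agents against myoglobin, and leaving out all libraries numbered 3 gave 140 and 174. Low values such as those of Ifit3 and Rsad2 are limited by counting error.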
